A study of Mus musculus with 2 samples.

Results

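Among the nuclei of the right atrium of control and Tbx5 G125R/+ mice there is a group that carries short muscle transcripts with little titin. It was taken as all nuclei with at least 3 counts of TNNI3 and MYL4 together and with TTN under 2% of their counts. TNNI3 encodes cardiac troponin I, MYL4 the atrial essential myosin light chain and TTN the giant sarcomere protein titin. Of 6408 nuclei, 393 (6.13%) met this rule, and they are called TNNI3/MYL4-rich, titin-poor nuclei here. They were compared with 878 titin-rich nuclei, which have TTN at 2% of counts or more, and with the 5137 remaining nuclei, which have TTN under 2% and fewer than 3 counts of TNNI3 and MYL4. The nuclei were thus chosen by their measured TNNI3, MYL4 and TTN counts, so these 3 genes were left out of every profile and of the totals, and their own levels are only a description.

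Each genotype was measured in 1 library of single-nucleus RNA sequencing, made from a pool of 3 right atria of adult mice with 7000 nuclei loaded in droplets. The control library holds 3475 nuclei and 560272 counts, and the Tbx5 G125R/+ library, from mice with 1 copy of a glycine-to-arginine change in the transcription factor Tbx5 in all their cells, holds 2933 nuclei and 422811 counts. Counts per nucleus were low, with a median of 132 over both libraries. With 1 library per genotype no test between genotypes or groups was made, nuclei are not replicates, and all 95% intervals (exact Poisson for levels and ratios, exact binomial for shares) cover counting error only. Genes are listed under human Ensembl identifiers and symbols, while the submitters' processing notes name mm10. Of these 9330 genes, 7901 have a namesake among mouse genes by symbol.

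Heart muscle cells hold their contractile proteins in sarcomeres, where thick filaments of myosin slide along thin filaments of actin that carry the troponin complex, and titin spans the length from the edge to the centre. The messengers of these proteins are made in the nucleus and translated in the cytoplasm. A nucleus therefore holds unspliced and retained RNA, such as MALAT1, a long noncoding RNA of nuclear speckles, while messengers of ribosomal proteins, respiratory chain subunits and small contractile proteins collect in the cytoplasm. Droplets can also hold more than 1 nucleus, or RNA that was free in the suspension.

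The 393 nuclei had 3 to 26 counts of TNNI3 and MYL4 (the rule counts), with a median of 4, and 166 of them stood just at 3 counts. TTN was at 0 in 182 of them (46.3%). In the control library TNNI3 was at 186 and MYL4 at 39.2 per 10000 counts of these nuclei, and in the Tbx5 G125R/+ library at 194 and 33.8. MYH6, the alpha myosin heavy chain of the atrium, was at 70.0 per 10000 in nuclei with 3 rule counts and at 48.4 in the 424 titin-poor nuclei with 2. CRYAB, the small heat shock protein alpha B-crystallin, was at 74.7 and 47.3. At the titin limit, the 102 nuclei with TTN between 1% and 2% had MYH6 at 121 per 10000 and the 60 nuclei with at least 3 rule counts and TTN between 2% and 3% had it at 119. EEF1A1, a translation elongation factor, was at 91.5 (80.6 to 103) inside this limit and 56.1 (45.02 to 69.2) outside it.

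The group took up 270 of 3475 control nuclei, or 7.77% (95% interval 6.90 to 8.71), and 123 of 2933 Tbx5 G125R/+ nuclei, or 4.19% (3.50 to 4.98). Its share was 1.85 times as high in the control library (1.49 to 2.31). Titin-rich nuclei went the other way, at 11.8% of control and 15.9% of Tbx5 G125R/+ nuclei. The gap between the libraries lay mostly in the nuclei with many rule counts. With exactly 3 counts, the shares were 2.91% and 2.22%, whose intervals overlap (2.37 to 3.52 and 1.71 to 2.82). With 6 or more, 89 control nuclei (2.56%) stood against 15 Tbx5 G125R/+ nuclei (0.511%), a ratio of 5.01 (2.88 to 9.32). A rule in percent of counts gave a smaller gap: with TNNI3 and MYL4 at 2% of counts or more in place of 3 counts, 6.42% of control and 5.25% of Tbx5 G125R/+ nuclei qualified, a ratio of 1.22 whose interval (0.991 to 1.51) includes 1. With at least 5 rule counts the ratio was 3.21 (2.15 to 4.94). A difference between mice, pools or library preparations cannot be told apart from one between genotypes.

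These nuclei were deep. They had a median of 219.5 counts in the control library (55 to 968) and 164 in the Tbx5 G125R/+ library (47 to 535), against 128 and 118 in the remaining nuclei and 240 and 221 in titin-rich nuclei. A fixed number of rule counts is easier to reach in a deep nucleus, and the share of nuclei in the group grew with depth above 100 counts. In the control library it was 3.34% at 100 to 149 counts, 14.0% from 200 to below 300 and 31.1% at 300 or more. In the Tbx5 G125R/+ library it was 1.86%, 7.37% and 13.8%. In both libraries the share under 100 counts, 4.77% and 4.08%, was above that at 100 to 149 counts, so that depth and share did not move together over the whole range. Of the deepest 5% of nuclei, 66 of 174 in the control library and 21 of 147 in the Tbx5 G125R/+ library belonged to the group. Titin-rich nuclei held more of them, 78 and 102, and 30 and 24 were remaining nuclei.

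**Figure D1:**
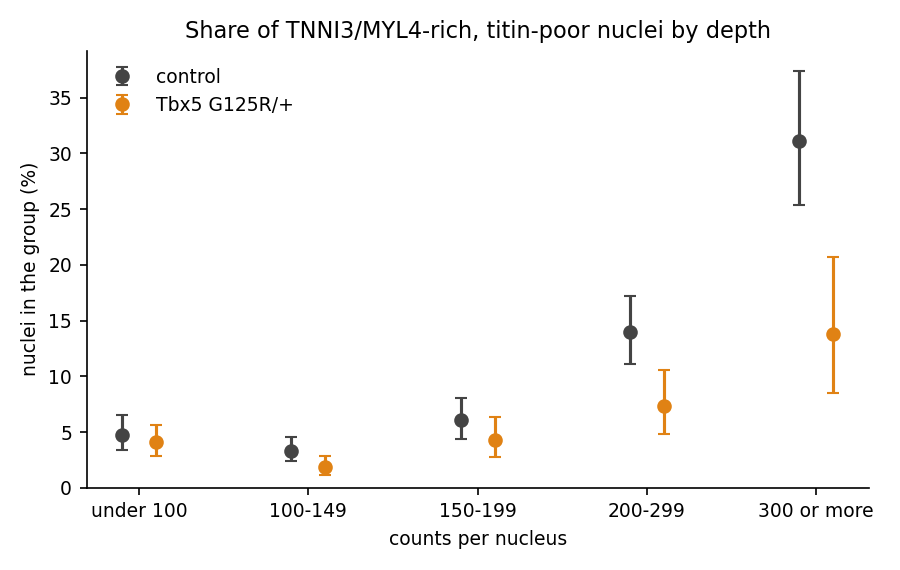
Percentage of nuclei that meet the rule (vertical axis) in bins of counts per nucleus (horizontal axis), with exact binomial 95% intervals, for the control and the Tbx5 G125R/+ library. Control and Tbx5 G125R/+ shares are 31.1% and 13.8% at 300 counts or more and lie close together, at 4.77% and 4.08%, under 100 counts.

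Ribosomal protein messengers were high and the list of nuclear-retained RNA and speckle genes was low beside both other groups. Ribosomal protein messengers made up 714 per 10000 counts of these nuclei, against 209 in titin-rich and 254 in remaining nuclei. All 23 ribosomal protein genes with enough counts (at least 100 over both groups) were more than 2-fold above titin-rich nuclei, where 22.4% of all 549 genes compared were that much higher and 28.2% that much lower. Against remaining nuclei it was 28 of 29, where 10.4% of 1447 genes were higher and 20.2% lower. The median log2 ratio of the ribosomal protein genes was 1.84 over titin-rich and 1.54 over remaining nuclei, beside -0.38 and -0.42 over all genes compared. Against only the 180 titin-rich nuclei with at least 3 rule counts, a comparison chosen after seeing the data, 11 of 22 ribosomal protein genes were more than 2-fold higher, with a median of 1.01 beside 0.24 over the 230 genes compared. Of those 230 genes, 43 were that much higher. Because of the negative medians of -0.38 and -0.42, the median of ratios, as another scaling, moves every log2 ratio up by 0.38 and 0.42. That turns no list named here from above to below 0 or back, except the cardiac transcription factors against remaining nuclei, from -0.24 to 0.19.

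RPS20, a protein of the small ribosomal subunit, was at 88.3 per 10000 in the control and 78.0 in the Tbx5 G125R/+ library of these nuclei. It was at 22.9 and 18.9 in titin-rich and at 26.3 and 24.8 in remaining nuclei. RPL35A, of the large subunit, was at 60.4 and 61.0, against 19.5 and 20.1 in titin-rich and 21.5 and 22.5 in remaining nuclei. In both libraries both genes were higher in the TNNI3/MYL4-rich, titin-poor nuclei than in either other group, by more than the counting intervals.

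Messengers of ribosomal proteins often begin with a run of pyrimidines at the 5′ end, through which their translation is controlled together. Since these genes moved together, the 30 bases around the RefSeq start (10 before it and 20 from it on, GRCm38.p6) are shown for the most counted of the ribosomal protein genes above both groups that the promoter table holds, and for the TNNI3 and MYL4 genes of the rule. Capitals mark a run of a C followed by at least 4 bases that are each C or T, on the strand of the gene. Rpl35a has more than 1 start in the table and the one that holds a run is shown.
Rpl35a, chr16:33056472-33056501, plus strand: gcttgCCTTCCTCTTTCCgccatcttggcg
Rpl15, chr14:18270967-18270996, minus strand: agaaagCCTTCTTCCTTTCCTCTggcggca
Rpl27a, chr7:109519185-109519214, plus strand: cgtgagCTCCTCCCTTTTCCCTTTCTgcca
Rps23, chr13:90923112-90923141, plus strand: cggctgggcggggCTTCCCgcaatgccttg
Tnni3, chr7:4522509-4522538, minus strand: ctttgcacacggCTCCCCTCacaccctgtt
Myl4, chr11:104550653-104550682, plus strand: gagtgctaccggaaactgttgggttggatc
Of the 23 ribosomal protein genes above both groups, 13 matched the table. Of these, 9 (69.2%) held such a run at a listed start, against 39.6% of all 27025 genes in the table. Among all genes above both groups, which include these, it was 43 of 83 matched (51.8%), and among genes below both 45 of 108 (41.7%). The run lies across the start in Rpl35a, Rpl15 and Rpl27a, and Rps23 and Tnni3 each hold a shorter one after the start. A match is a description of these letters only, and other motifs were not searched.

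Respiratory chain messengers followed the same pattern. The nuclear-encoded subunits of oxidative phosphorylation came to 213 per 10000, against 95.7 in titin-rich and 61.5 in remaining nuclei, with 8 of 9 and 11 of 14 genes more than 2-fold higher. In the control library alone it was 3 of 7 over titin-rich nuclei, and against titin-rich nuclei with at least 3 rule counts 0 of 7, with a median log2 ratio of 0.70. In these 2 comparisons 84 of all 315 and 43 of all 230 genes were more than 2-fold higher. COX5A, a subunit of cytochrome c oxidase, was at 39.4 per 10000 in the control and 37.6 in the Tbx5 G125R/+ library, against 14.1 and 10.8 in titin-rich and 9.28 and 9.97 in remaining nuclei. ATP5MC3, which forms part of the rotor of ATP synthase, was at 38.5 and 35.8, against 15.1 and 15.6 in titin-rich nuclei. MTRNR2L6, a human gene that resembles the mitochondrial gene of the large ribosomal RNA, was at 37.3 and 49.99, against 10.4 and 5.78 in titin-rich and 7.99 and 7.82 in remaining nuclei. MTRNR2L10, of the same family, was at 26.6 and 22.9, against at most 4.75 in any library of the other groups. The sources used here do not say which mouse transcripts were counted under these 2 human names. The chaperones came to 159 per 10000 counts, against 66.8 in titin-rich and 69.8 in remaining nuclei, with 5 of 5 and 3 of 7 genes more than 2-fold higher. Against titin-rich nuclei with at least 3 rule counts 0 of 2 were, with a median of 0.76. Most of the chaperone sum was CRYAB, at 109 per 10000, against 23.3 in remaining nuclei and 42.4 and 42.6 in the 2 libraries of titin-rich nuclei. Over remaining nuclei 4 of the 7 chaperone ratios were above 0 and 3 below, with a median of 0.43. HSPA5, a chaperone of the endoplasmic reticulum, was at 25.7 and 24.3 per 10000, against 12.7 and 11.7 in titin-rich but 31.4 and 25.4 in remaining nuclei.

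The list of nuclear-retained RNA and speckle genes came to 356 per 10000, against 749 in titin-rich and 703 in remaining nuclei. It holds noncoding RNA such as MALAT1 and genes of nuclear proteins such as DDX5 and SON, and where their RNA lay was not measured. None of its genes was more than 2-fold higher, 5 of 10 were that much lower than in titin-rich and 8 of 14 that much lower than in remaining nuclei, with medians of -1.01 and -1.03. Of all genes compared, 28.2% and 20.2% were that much lower. Under the median of ratios it was 2 of 10 and 4 of 14, with medians of -0.63 and -0.61, and 92 of all 549 and 119 of all 1447 genes were that much lower. With totals that leave out the mitochondrial-like and ribosomal genes it was 2 of 10 and 6 of 14. Under these totals 132 of all 524 and 248 of all 1416 genes were that much lower. MALAT1 was at 23.0 per 10000 in the control and 33.9 in the Tbx5 G125R/+ library of these nuclei. It was at 90.1 and 93.3 in titin-rich and at 49.0 and 53.9 in remaining nuclei. DDX5, an RNA helicase that acts in splicing, was at 165 and 217, against 331 and 411 in titin-rich and 320 and 383 in remaining nuclei. SON, a scaffold of the speckle, was at 59.8 and 67.9, against 129 and 130 in titin-rich nuclei.

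The shift was seen nucleus by nucleus. The median nucleus of the group had 7.04% of its counts in ribosomal protein messengers and 2.65% in the nuclear list, against 1.45% and 7.07% in titin-rich nuclei and 1.99% and 6.82% in remaining nuclei. Ribosomal counts exceeded nuclear counts in 272 of 393 nuclei (69.2%), in 124 of 878 titin-rich nuclei (14.1%) and in 577 of 5137 remaining nuclei (11.2%). Among the 180 titin-rich nuclei that also had 3 or more rule counts, the share lay between, at 32.2%. When every nucleus was thinned to 80 counts, which 349 of the 393 reached, 86 (24.6%, interval 20.2 to 29.5) had no count of the nuclear list, against 4.04% of titin-rich and 1.52% of remaining nuclei. Of all 186 such nuclei, 86 (46.2%) were TNNI3/MYL4-rich and titin-poor, while the group made up 6.25% of nuclei that could be thinned. The nuclei of the group varied, with the nuclear list at 0.508% of counts at the lower quartile and 4.97% at the upper. Some had the nuclear list at 5% to 10% of counts with few ribosomal messengers, as most titin-rich nuclei did. Whether this spread goes beyond counting error was not tested.

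**Figure D2:**
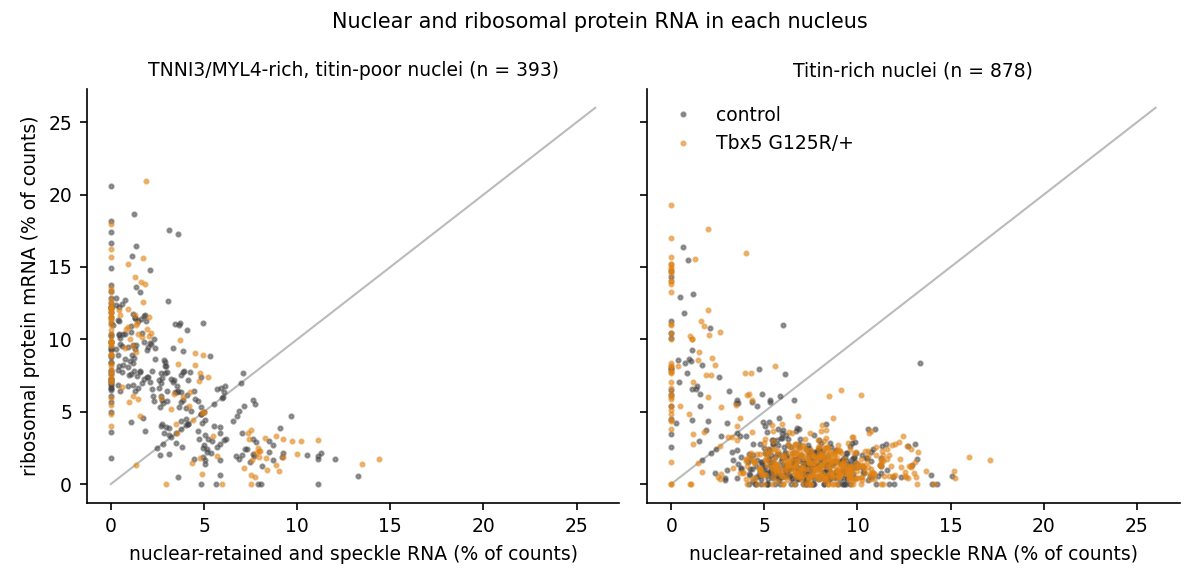
Percentage of counts in nuclear-retained and speckle RNA (horizontal axis) against the percentage in ribosomal protein messengers (vertical axis), with 1 point per nucleus, for the 393 TNNI3/MYL4-rich, titin-poor nuclei and the 878 titin-rich nuclei. The grey line marks equal shares, and 272 points of the left panel and 124 of the right panel lie above it.

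The 82 nuclei with no count of the nuclear list, before thinning, were shallow, with a median of 88 counts against 229 in the other 311. Both sets had a median of 4 rule counts, but the rule itself asks for at least 3. A shallow nucleus in the group thus has a larger share of rule transcripts, and it also misses the nuclear list more easily. In the 82 nuclei MYH6 was at 113 per 10000 and in the others at 93.04. CRYAB was at 172 and 102, and RYR2, the channel that releases calcium to start contraction, at 4.71 and 7.76. The part of depth and of the rule in these values was not tested. In the Tbx5 G125R/+ library the nuclei with no such count made up 31.7% of the group (39 of 123, interval 23.6 to 40.7). In the control library they made up 15.9% (43 of 270, 11.8 to 20.8). After thinning the shares were 27.6% and 23.5%, and their intervals overlap (19.0 to 37.5 and 18.4 to 29.2).

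The contractile genes were well above the remaining nuclei and split against titin-rich nuclei. MYH6 was at 98.3 per 10000 in the control and 84.8 in the Tbx5 G125R/+ library, between titin-rich nuclei (170 and 164) and remaining nuclei (17.5 and 19.4). ACTC1, the actin of heart muscle, was at 94.4 and 80.7, above titin-rich nuclei (46.6 and 42.7) and remaining nuclei (17.0 and 17.9). CRYAB was at 109 and 107, above titin-rich (42.4 and 42.6) and remaining nuclei (24.2 and 22.1). CKM, the muscle creatine kinase, was at 11.4 and 7.34, above titin-rich (3.53 and 4.09) and remaining nuclei (1.53 and 1.81). In the Tbx5 G125R/+ library the CKM level rests on 16 counts, and its interval overlaps that of titin-rich nuclei. TPM1, alpha tropomyosin, was at 60.2 and 60.5, below titin-rich (97.2 and 82.0) and above remaining nuclei (18.3 and 19.0). TNNC1, the calcium-binding troponin C of the same complex as TNNI3, did not follow it. It was at 2.55 and 1.38, against 18.4 and 10.6 in titin-rich nuclei. MYH7, the beta myosin heavy chain, was listed at 271 and 269, above titin-rich (140 and 146) and remaining nuclei (41.6 and 44.6), but MYH6 and MYH7 are near-identical neighbours on chromosome 14 and their counts may be split between them. Of the 24 sarcomere genes on the list, 5 could be compared with remaining nuclei, and all 5 were more than 2-fold higher (median 2.38), while against titin-rich nuclei 1 of 7 was higher and 3 lower (median -0.81). Among all genes compared, 10.4% were that much higher than in remaining nuclei. Against titin-rich nuclei 22.4% were higher and 28.2% lower.

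**Figure D3:**
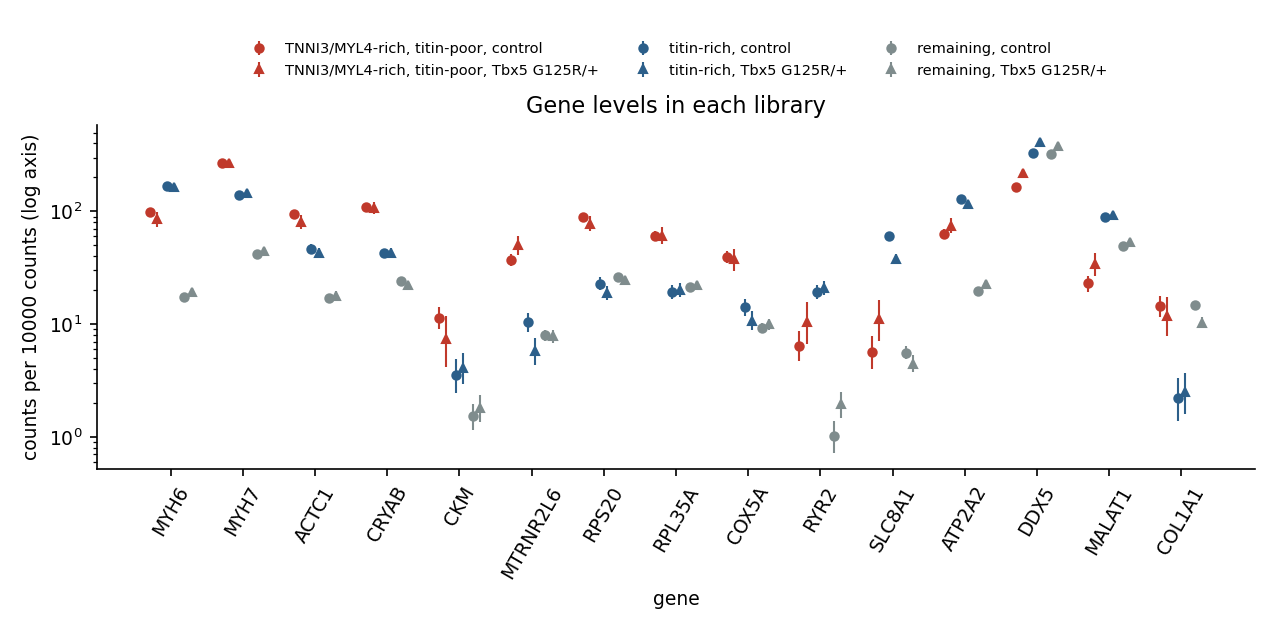
Counts per 10000 counts (vertical log axis) of muscle, cytosolic, nuclear and collagen genes (horizontal axis) in the 3 groups of nuclei, with circles for the control and triangles for the Tbx5 G125R/+ library and bars for exact Poisson 95% intervals. ACTC1, CRYAB, MTRNR2L6, RPS20, RPL35A and COX5A are highest in the TNNI3/MYL4-rich, titin-poor nuclei of both libraries, and MALAT1 and DDX5 are lowest there.

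Long genes of the muscle membrane and of calcium handling were low beside titin-rich nuclei. The list of long or membrane genes of heart muscle came to 118 per 10000 counts, against 327 in titin-rich and 44.6 in remaining nuclei, and 8 of its 10 compared genes were more than 2-fold below titin-rich nuclei. Among all 549 genes compared, 28.2% were that much lower. SLC8A1, the sodium-calcium exchanger of the cell membrane, was at 5.71 per 10000 in the control and 11.0 in the Tbx5 G125R/+ library, against 60.6 and 38.0 in titin-rich and 5.60 and 4.47 in remaining nuclei. RYR2 was at 6.46 and 10.5, against 19.4 and 20.9 in titin-rich and 1.01 and 1.95 in remaining nuclei. ATP2A2, the calcium pump of the sarcoplasmic reticulum, was at 62.8 and 74.8, against 129 and 116 in titin-rich and 19.7 and 22.8 in remaining nuclei. The transcriptional regulators of heart metabolism PPARGC1A and ESRRG were among the 12 lowest ratios to titin-rich nuclei. PPARGC1A was at 3.73 per 10000 against 24.2 (log2 ratio -2.68, -3.25 to -2.19), and ESRRG at 1.58 against 10.3 (-2.65, -3.59 to -1.92). TTN-AS1, an antisense gene of TTN and thus bound to the rule where strands were not told apart, was at 4.53 against 43.3. EHBP1, which acts in endocytosis, had the lowest ratio of the 549 genes, at 3.17 against 31.5 per 10000 (log2 ratio -3.29, -3.91 to -2.77).

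Gene length ran along with these differences. Over mouse genes with the same symbol (GENCODE, GRCm38), which 507 of 549 and 1343 of 1447 compared genes had, the median log2 ratio over titin-rich nuclei was 1.61 in the 61 genes under 5 kb, -0.49 at 50 to 100 kb and -1.11 in the 79 genes of 200 kb or more. Over remaining nuclei it was 0.54, -0.47 and -0.65. The Spearman correlation across genes, which share these libraries and are not independent, was -0.466 and -0.279. Ckm (chr7:19411094-19421583, 10.5 kb) and Actc1 (chr2:114047282-114052875, 5.59 kb) lie at the short end, and Ryr2 (chr13:11553099-12106945, 554 kb) and Slc8a1 (chr17:81373105-81738387, 365 kb) at the long end. Malat1 (chr19:5795690-5802672, 6.98 kb) and Ddx5 (chr11:106780355-106789185, 8.83 kb) are short and were nevertheless low, and Tnnc1 (chr14:31208312-31211729) is only 3.42 kb.

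**Figure D4:**
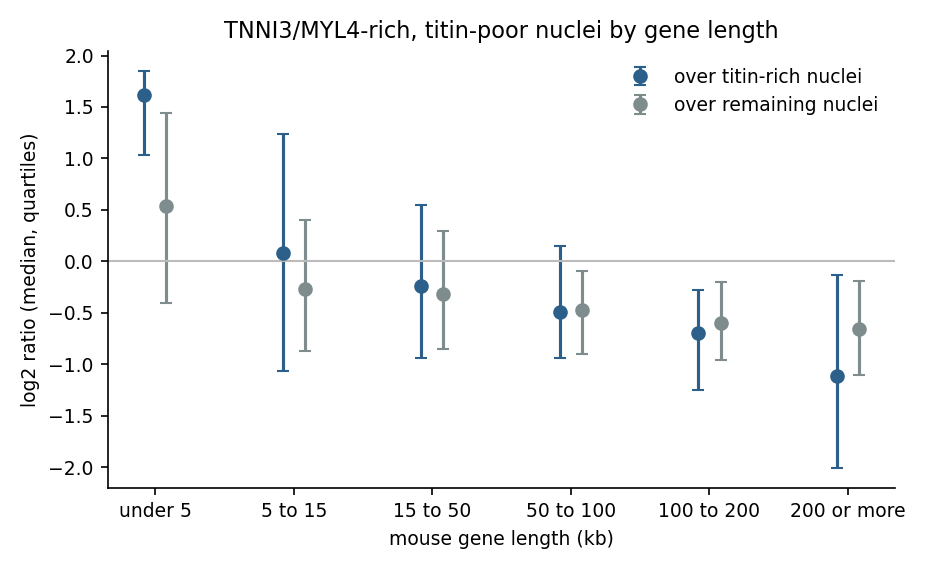
Median log2 ratio of gene levels in TNNI3/MYL4-rich, titin-poor nuclei over titin-rich or remaining nuclei (vertical axis, bars from the lower to the upper quartile of the genes) in bins of mouse gene length in kb (horizontal axis). Over titin-rich nuclei the median goes from 1.61 under 5 kb to -1.11 at 200 kb or more.

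Over the 519 genes that could be set against both other groups, 122 were above both by their counting intervals and 133 were below both. Of the 122, 118 also had a level above both in each library taken alone, where the intervals were not considered. Between the groups lay 38 genes, 23 of which were higher in titin-rich than in remaining nuclei. Above both were all 23 ribosomal protein genes, all 9 genes of oxidative phosphorylation, both MTRNR2L genes and 3 of 5 chaperones, and below both were 9 of 10 genes of the nuclear list. Beside muscle and mitochondrial-like genes, the 12 highest ratios to remaining nuclei included YBX1, a cytoplasmic messenger-binding protein, EEF1A2, the elongation factor of adult muscle, and NEXN, or nexilin, which binds actin at the Z-disc. YBX1 was at 75.5 per 10000 against 16.9 in remaining and 20.4 in titin-rich nuclei. EEF1A2 was at 13.5 against 2.98 and 6.22. NEXN was at 12.7 against 2.87 in remaining but 35.2 in titin-rich nuclei.

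Ratios between muscle transcripts stood near those of remaining nuclei for some genes and not for others. For each count of MYH6 there were 0.958 counts of ACTC1 (0.869 to 1.057) in the group, 0.952 (0.878 to 1.03) in remaining nuclei, 1.059 (0.870 to 1.29) in remaining nuclei with fibroblast markers and 0.268 (0.249 to 0.289) in titin-rich nuclei. CRYAB stood at 1.15 (1.04 to 1.26) in the group, 1.27 (1.18 to 1.37) in remaining, 1.56 (1.30 to 1.87) in fibroblast-marker and 0.255 (0.236 to 0.275) in titin-rich nuclei. CKM stood at 0.110, 0.0902, 0.108 and 0.0229. RYR2 stood at 0.0787 (0.0603 to 0.101) in the group, 0.0774 (0.0622 to 0.0953) in remaining and 0.121 (0.109 to 0.134) in titin-rich nuclei. SLC8A1 stood at 0.0739 (0.0561 to 0.0957) in the group but 0.280 (0.248 to 0.315) in remaining and 0.296 (0.275 to 0.318) in titin-rich nuclei. Remaining nuclei were not uniform in SLC8A1. Those with fibroblast markers had 0.414 (0.317 to 0.536), and those with endothelial markers 0.0476 (0.00558 to 0.183) on 2 counts, an interval that covers the value of the group. ATP2A2 stood at 0.692 (0.622 to 0.771) in the group, 1.15 (1.07 to 1.24) in remaining and 0.737 (0.699 to 0.777) in titin-rich nuclei. MYH7, the beta myosin heavy chain, stood at 2.85 (2.63 to 3.08), 2.34 (2.19 to 2.51) and 0.859 (0.816 to 0.903). SLC25A4, the ADP/ATP carrier of mitochondria, stood at 2.11 (1.94 to 2.29), 2.55 (2.38 to 2.72) and 0.761 (0.722 to 0.802), and COX5A at 0.410 (0.361 to 0.465), 0.524 (0.476 to 0.576) and 0.0747 (0.0654 to 0.0850). The intervals of ACTC1, CRYAB, CKM and RYR2 in these nuclei overlapped those of remaining nuclei, and those of SLC8A1, ATP2A2, MYH7, SLC25A4 and COX5A did not. The interval of ATP2A2 overlapped that of titin-rich nuclei. Counts may be split between MYH6 and MYH7, and MYH7 for each MYH6 count differed between the groups. All ratios to MYH6, and these overlaps, may carry that split, which was not tested. The SLC8A1 ratio differed between the libraries of the group, at 0.0581 in the control and 0.130 in the Tbx5 G125R/+ library, against 0.321 and 0.231 in remaining nuclei, and that of RYR2 was 0.0657 and 0.124. The levels themselves were about 5-fold apart: MYH6 was 5.19-fold, ACTC1 5.23-fold and CKM 6.31-fold above remaining nuclei. Of the remaining nuclei, 65.0% had a count of a contractile or cytoplasmic muscle marker, and 48.8% did after thinning to 80 counts, against 92.8% of the TNNI3/MYL4-rich, titin-poor nuclei. How far free RNA enters the group was not tested.

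**Figure D5:**
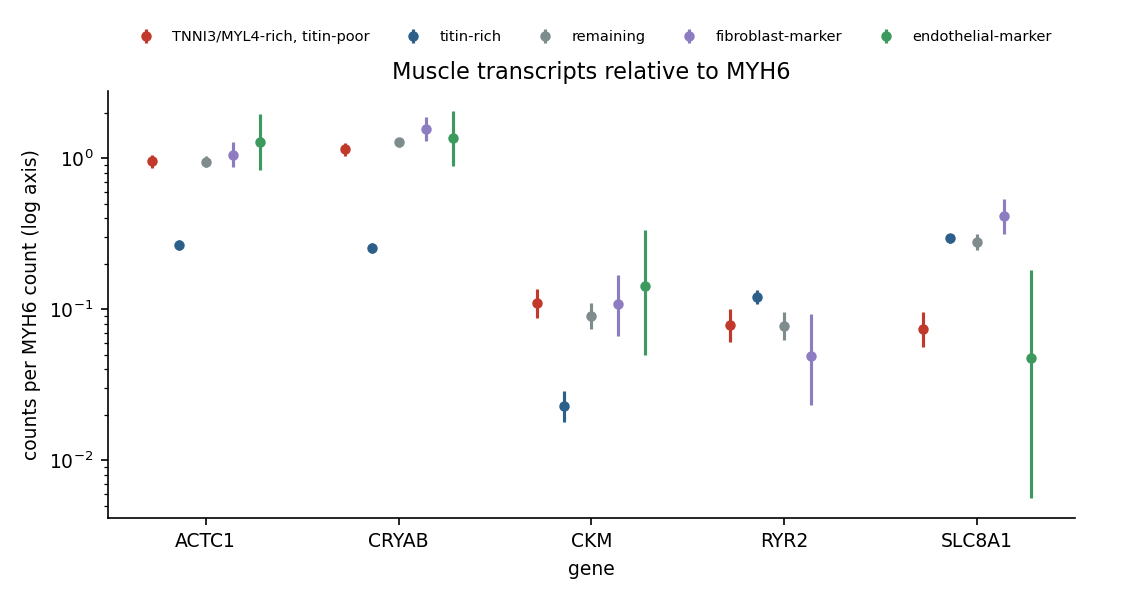
Counts per count of MYH6 (vertical log axis) for 5 muscle genes (horizontal axis) in the TNNI3/MYL4-rich, titin-poor nuclei, titin-rich nuclei, remaining nuclei and the remaining nuclei with fibroblast or endothelial markers, with exact 95% intervals. RYR2 had 0 counts in endothelial-marker nuclei and has no point there. ACTC1, CRYAB and CKM are lower for each MYH6 count in titin-rich nuclei than in any other group. Counts may be split between MYH6 and MYH7, and all these ratios may carry that split. SLC8A1 is at 0.0739 in the group against 0.280 in remaining nuclei, with 0.414 in fibroblast-marker and 0.0476 in endothelial-marker nuclei.

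Markers of fibroblasts and endothelium were present at levels between those of titin-rich and of remaining nuclei. The 19 fibroblast markers summed to 56.8 per 10000 in the control and 48.6 in the Tbx5 G125R/+ library, against 19.1 and 16.3 in titin-rich and 77.9 and 68.5 in remaining nuclei. COL1A1, the alpha 1 chain of collagen I, was at 14.4 and 11.9, against 2.22 and 2.49 in titin-rich and 14.8 and 10.3 in remaining nuclei, a level close to that of remaining nuclei. COL3A1, of collagen III, was at 6.91 and 5.04, against 1.21 and 1.49 in titin-rich nuclei. The 17 endothelial and endocardial markers came to 10.3 per 10000, against 1.70 in titin-rich and 24.4 in remaining nuclei. TEK, the angiopoietin receptor of endothelium, was at 2.94, against 0.551 and 6.60. Mural markers came to 3.51 per 10000 counts, against 1.91 in titin-rich and 1.37 in remaining nuclei, mostly through ACTA2, smooth muscle actin, at 2.94 against 1.75 and 0.530. Macrophage markers had 1 count among all 393 nuclei, and lymphoid and adipocyte markers had 0, which allows up to 3 counts. The part of these markers in the results was not tested beyond the values that follow.

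At least 1 fibroblast marker count was found in 56.3% of the control and 48.0% of the Tbx5 G125R/+ nuclei of the group, against 29.9% and 28.1% of titin-rich and 47.9% and 42.9% of remaining nuclei, which are shallower. At 80 counts each, the shares were 27.9% and 30.6% in the group, 13.1% and 11.5% in titin-rich nuclei and 39.4% and 35.4% in remaining nuclei. An endothelial marker count was found in 17.8% of the control and 17.1% of the Tbx5 G125R/+ nuclei of the group. Fibroblast and endothelial markers met in the same nucleus in 39 of the 393 (9.92%). How often they would meet from their separate rates alone was not tested. At least 2 counts of fibroblast, endothelial, macrophage or mural markers were found in 118 nuclei (30.03%, 25.5 to 34.8). These nuclei had a median of 280.5 counts, against 167 in the other 275. The shares with both markers or with 2 such counts are not given for the other groups. Without these 118 nuclei the levels were nearly as strong. This split cannot show how far multiplets enter, since a shallow nucleus can hold other RNA with fewer than 2 marker counts. In those 275 nuclei MYH6 was at 89.3 per 10000, CRYAB at 104, the ribosomal protein genes at 703 and the nuclear list at 390, against 103, 116, 729 and 307 in the 118 nuclei with such markers. COL1A1, which is itself among the markers that made this split, was at 3.88 and 27.7. SLC8A1 was at 9.51 in the nuclei without and 3.53 in those with such markers. No doublet caller was used.

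The highest ratios to titin-rich nuclei were led by genes that other heart cells express. RAMP2, the partner of the adrenomedullin receptor in endothelium, was at 12.02 per 10000 in the control and 9.63 in the Tbx5 G125R/+ library, against 1.21 and 0.797 in titin-rich and 16.0 and 14.8 in remaining nuclei (log2 ratio 3.48 over titin-rich nuclei, 2.81 to 4.28). EBF1, a transcription factor of mesenchymal cells, was at 10.4 per 10000 against 1.504 in titin-rich and 28.6 in remaining nuclei. ID3, an inhibitor of basic helix-loop-helix factors, was at 16.3 against 3.11 and 24.6. TMSB4X, thymosin beta 4, which binds free actin, was at 9.85 against 1.60 and 4.02, and S100A6, a calcium-binding protein, at 13.6 against 2.86 and 9.50, both above each other group. Genes of the remaining cells were not all present in proportion. ADAMTS10, a secreted protease, was at 0.566 per 10000 against 6.94 in remaining nuclei (log2 ratio -3.48, -5.25 to -2.38), and DNAJC1, a cochaperone of the endoplasmic reticulum, at 0.905 against 5.67. The profile of the group over 1705 genes correlated at 0.776 (Pearson, log levels) with that of remaining nuclei and at 0.680 with that of titin-rich nuclei. In the control library alone these were 0.721 and 0.617 over 1099 genes. In the Tbx5 G125R/+ library they were nearly equal, at 0.655 and 0.652 over 858 genes. Remaining nuclei also hold more counts, 678614 against 199470 in titin-rich nuclei, and the part of this was not tested. Genes are not independent replicates, and the same libraries enter all 3 profiles.

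Within the group, several of these features were graded with the rule counts, which are the counts that chose the nuclei. From the 166 nuclei with 3 counts to the 104 with 6 or more, MYH6 went from 70.0 to 120.5 per 10000, CRYAB from 74.7 to 134, CKM from 5.47 to 14.2 and the ribosomal protein genes from 527 to 843. The nuclear list went from 511 to 230, MALAT1 from 41.9 to 12.6 and SLC8A1 from 10.9 to 3.75. COL1A1 was at 11.7, 17.8 and 12.9 in nuclei with 3, with 4 or 5 and with 6 or more rule counts, ATP2A2 at 64.5, 58.9 and 71.0, and the calcium handling list at 105, 97.9 and 111, and these did not follow. The median depth was 159 and 364.5 counts. By depth, the ribosomal and nuclear lists went the other way. The 74 nuclei under 100 counts had 913 counts of ribosomal protein genes and 147 of the nuclear list per 10000, against 721 and 340 in the 94 nuclei with 300 counts or more. MYH6 was at 93.6 and 112 per 10000 and CKM at 11.5 and 12.3 in these 2 sets. A shallow nucleus needs a larger share of rule transcripts to reach 3 counts. TTN, a gene of the rule, also marks deeper nuclei, with a median of 270 counts in the 211 nuclei with at least 1 TTN count and 145 in the 182 without. The first had RYR2 at 9.97, SLC8A1 at 8.97 and MYH6 at 108 per 10000, and the others had 2.13, 2.84 and 66.4, and ribosomal protein genes stood at 729 and 681. The part of depth in these values was not tested.

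Within the group most genes differed by less than 1.5-fold between the genotypes. Over 311 genes with at least 50 counts, levels correlated at 0.919 between the libraries, 29 genes (9.32%) were more than 1.5-fold higher in Tbx5 G125R/+ nuclei and 37 (11.9%) more than 1.5-fold lower, and the interval lay wholly above 0 for 20 and wholly below 0 for 16. None of 23 ribosomal protein genes and none of 5 sarcomere genes passed 1.5-fold in either direction. MYH6 was at 84.8 in Tbx5 G125R/+ and 98.3 in control nuclei (log2 ratio -0.21, -0.46 to 0.03), CRYAB at 107 and 109 (-0.03, -0.25 to 0.19) and CKM at 7.34 and 11.4 (-0.60, -1.52 to 0.15).

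Genes that titin-rich nuclei express were frequent among the higher ones. Of the 29 genes higher in Tbx5 G125R/+ nuclei, 12 (41.4%) were more than 2-fold above remaining nuclei in titin-rich nuclei, against 10.6% of all 311 genes, and 0 were as much below. Of the 37 lower genes, 2 were above and 15 (40.5%) below, against 14.8% of all genes. FIGN, a microtubule-severing enzyme, was at 11.9 per 10000 in Tbx5 G125R/+ and 4.21 in control nuclei of the group (log2 ratio 1.51, 0.68 to 2.33). AKAP6, which anchors protein kinase A at the nuclear envelope of muscle cells, was at 10.5 and 4.06 (1.38, 0.51 to 2.24), and VEGFA, the endothelial growth factor, at 20.2 and 8.11 (1.32, 0.71 to 1.92). In titin-rich nuclei the log2 ratios of these 3 genes were 0.09 (-0.19 to 0.37), 0.09 (-0.14 to 0.32) and 0.19 (0.003 to 0.37). In remaining nuclei they were 0.72 (0.37 to 1.09), 0.91 (0.41 to 1.42) and 0.44 (0.22 to 0.67). PAM, an enzyme that amidates peptides in the secretory granules of the atrium, was at 137 and 79.8 (0.78, 0.57 to 0.99), and it was also higher in titin-rich (0.47, 0.31 to 0.64) and remaining nuclei (0.68, 0.53 to 0.83).

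On the lower side, SMAD7, an inhibitor of TGF-beta signaling, was at 2.75 per 10000 in Tbx5 G125R/+ and 9.01 in control nuclei (log2 ratio -1.61, -3.21 to -0.51), on 6 and 60 counts. JUN, an immediate-early transcription factor, was at 5.04 and 13.7 (-1.38, -2.49 to -0.53), and it was also lower in titin-rich (-0.68, -1.27 to -0.12) and remaining nuclei (-0.32, -0.49 to -0.15). TIMP2, an inhibitor of matrix proteases, was at 5.04 and 10.7 (-1.03, -2.15 to -0.15), and CCDC80, a matrix protein of fibroblasts, at 3.21 and 8.41 (-1.30, -2.77 to -0.25). The makeup of the group differed between the libraries beside these values. Nuclei with 6 or more rule counts were 33.0% of the group in the control and 12.2% in the Tbx5 G125R/+ library, the long or membrane muscle genes came to 108 and 149 per 10000 counts, the nuclear list to 338 and 408, and nuclei with at least 2 marker counts of another cell type were 33.0% and 23.6%. The part of this makeup in the gene differences was not tested.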

How the data were processed

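Counts per nucleus and gene were used as deposited by the authors, who sorted nuclei, made 10x Genomics droplet libraries, kept nuclei with at least 1000 reads and did not normalize. The sources used here name no aligner or counting tool, and cell barcodes are replaced by numbers, so shared barcodes could not be counted. The authors' table of p-values and fold changes within clusters and their cluster labels were not used. Counts were summed over a group, without TNNI3, MYL4 and TTN, and given per 10000. Log2 ratios had 0.5 counts added, for genes with at least 100 counts over both groups (50 between genotypes), and intervals were exact at 95% (Python 3.11.15, numpy 2.4.6, scipy 1.17.1, pandas 2.3.3). The ratios and intervals were tested on simulated data. Thinning drew 80 counts per nucleus without replacement and left out shallower nuclei. The members and gene lists were chosen with earlier results of these data known. Named genes are the markers of the group, the 12 highest and 12 lowest ratios of each comparison, up to 4 of the most counted genes of each list, and markers of other cell types with at least 20 counts in the group; some of these are given by counts only, and DES, TNNT2 and others with few counts are not described. A few genes named by this rule are left out. The ribosomal protein genes with printed starts were taken by counts, after their values were seen.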

Additional observations from a re-analysis of the deposited data

Results flagged for a closer look

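Genes with at least 50 counts in the TNNI3/MYL4-rich, titin-poor nuclei were looked at here. In 2 of them the G125R over control ratio went opposite ways in these nuclei and in titin-rich nuclei. Both counting intervals lay apart from 0, and the difference was not tested. For SLC8A1 the log2 ratio was 0.96 (0.15 to 1.72) on 24 and 38 counts in the former and -0.67 (-0.86 to -0.49) on 381 and 601 counts in the latter. For MTRNR2L6 it was 0.43 (0.09 to 0.75) on 109 and 248 counts and -0.84 (-1.34 to -0.37) on 58 and 103 counts. TTN-AS1, which has fewer counts in the group and is bound to the rule, also went opposite ways. It was at 1.04 (0.01 to 2.00) on 16 and 24 counts and -0.21 (-0.41 to -0.02) on 403 and 461 counts. Each genotype is 1 library.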

How the results depend on the processing

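No paired analysis was possible because each genotype has 1 library, and for the same reason no replicate could be left out. Shares of the group are given for control, then G125R. They were 5.76% and 3.10% with TTN below 1%, 8.75% and 5.08% with TTN below 3%, 3.51% and 2.05% with TTN at 0 counts, 15.02% and 10.06% with at least 2 counts of TNNI3 and MYL4, 4.86% and 1.98% with at least 4, 3.40% and 1.06% with at least 5, 6.42% and 5.25% with 2% of counts, and 2.70% and 0.889% after thinning to 80 counts. In each the control share was the higher.

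Numbers of genes past the fold depend on how many can be compared. Against titin-rich nuclei, 85 genes were lower in the control library alone, 45 higher and 68 lower in G125R alone, 386 and 492 with at least 20 counts, 39 and 51 after thinning, and 92 lower under the median of ratios. Against only titin-rich nuclei with at least 3 counts of TNNI3 and MYL4, chosen after seeing the data, they were 43 and 27. Against remaining nuclei, 87 were higher and 166 lower in G125R alone, 355 and 870 with at least 20 counts, 96 and 191 after thinning, 441 lower with at least 5 rule counts, and 228 higher and 119 lower under the median of ratios. The scaling by the median of ratios in both comparisons was added after seeing the data. Between genotypes, 118 were higher and 130 lower with at least 20 counts, 10 and 14 without nuclei holding markers of another type, 12 higher with TTN below 1%, 11 and 16 with at least 5 rule counts, and 6 and 7 after thinning, which was also added later. With at least 5 rule counts ROCK1 turned, to -0.14.

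Of the group, 29.3% in control and 20.3% in G125R had 2 or more fibroblast counts, 5.19% and 3.25% 2 or more endothelial counts, and 0.741% and 0% 2 or more mural counts, and 0% in control 2 or more macrophage counts. After thinning, 27.9% and 30.6% had a fibroblast count, 8.76% in control an endothelial and 2.39% and 2.04% a mural count. In the G125R library alone the counts for each MYH6 count were 0.0865 of CKM, 1.26 of CRYAB, 0.124 of RYR2 and 0.130 of SLC8A1. The cause of these moves was not tested, beyond fewer nuclei or genes entering. A nucleus has few counts, and genes under 50 counts were not compared between genotypes.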
